A study of Mus musculus with 6 samples.

Results

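UDP-glucuronosyltransferases (UGTs) are the enzymes of the endoplasmic reticulum that attach glucuronic acid to lipophilic compounds. Their members here were the 10 genes with the symbols Ugt1a1, Ugt1a6a, Ugt1a9, Ugt2a3, Ugt2b1, Ugt2b5, Ugt2b34, Ugt2b35, Ugt2b36 and Ugt3a1, of 17460 gene symbols with a value in each liver. They were chosen by symbol, with earlier results of these data known, and all 10 had a value in every liver and passed the filter on low values. The table lists 9 further genes of the family, which are given beside them.

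RNA was sequenced after polyA selection from the livers of 6 C57BL/6 mice aged 9 months and fed the NASH diet, a diet that induces non-alcoholic steatohepatitis, for 24 weeks. There were 3 control and 3 Blnc1 LKO livers, 1 per mouse. Blnc1 is a long non-coding RNA, and Blnc1 LKO mice were made by injecting Cas9 transgenic mice with an adenovirus that expresses a pair of sgRNAs against Blnc1. The control mice of the study's high-fat diet cohort were Cas9 transgenic mice given a GFP adenovirus, and the labels do not give the control virus of the NASH cohort. Adenovirus transduces liver cells other than hepatocytes poorly, so these may keep Blnc1. The study reported a moderate reduction of Blnc1 in whole liver, a larger but incomplete one in isolated hepatocytes, and little change in the other liver cells. Blnc1 has no row of its own in the table, so its loss was not measured here.

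Glucuronidation makes bilirubin, steroids, bile acids, thyroid hormone and many drugs soluble enough to leave the body in bile and urine, and the liver is its main site. The sugar comes from UDP-glucuronate, which is made from glucose in the cytosol and carried into the endoplasmic reticulum. Enzymes of the UGT1 family conjugate bilirubin and phenols, those of the UGT2 family act on steroids, bile acids and many drugs, and those of the UGT3 family use other sugar donors. The Ugt1a genes are built in an unusual way, since each has a first exon and promoter of its own and all splice to the same remaining exons.

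In the GENCODE annotation of GRCm38, the 8 Ugt1a genes with a value lay on the + strand of chromosome 1. Ugt1a1 (chr1:88211959-88218997) and Ugt1a9 (chr1:88070800-88218997) each had 5 exons, of which the exons from chr1:88215044-88218997 were common to both. Their first exons were their own, 913 bases long for Ugt1a1 and 879 bases long for Ugt1a9. Reads in the common exons cannot be assigned to 1 of these genes, and whether they were counted is not given in the sources used here. The first exons were told apart better in some genes than in others. Of all stretches of 50 bases in the first exon, 0% were found in another gene of the table for Ugt1a1 and 6.63% for Ugt1a9. For Ugt1a6a (chr1:88134809-88218997) this share was 94.5%, in Ugt1a6b or Ugt1a7c, and for Ugt1a6b it was 48.3%. The first exon of Ugt1a6a is 94.9% identical to that of Ugt1a6b. From chr1:88138473 it also holds bases that are annotated as exon of another Ugt1a gene. The value of Ugt1a6a is therefore uncertain.

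The Ugt2b genes and Ugt2a3 (chr5:87324972-87337195, - strand) lay on chromosome 5, where each is a separate gene of 6 exons. Ugt2b34 (chr5:86889767-86906937), Ugt2b1 (chr5:86916638-86926530), Ugt2b36 (chr5:87065927-87092555) and Ugt2b5 (chr5:87124960-87140318) were on the - strand, and Ugt2b35 (chr5:87000860-87013275) was on the + strand. Ugt2b5 shared 41.7% of its 50-base stretches with Ugt2b36, Ugt2b37 or Ugt2b38, so part of its value is uncertain. In Ugt2b36 this share was 0.33%, and in Ugt2b1 it was 0%. Ugt3a1 (chr15:9276888-9315032, + strand) lay on chromosome 15, and 8.88% of its stretches were also in Ugt3a2.

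The promoters of 3 Ugt1a genes are shown because the first exons of this locus were used in different proportions in different livers. Each is the 250 bases before the start in RefSeq (GRCm38.p6), 5′ to 3′ along the gene, and capitals mark a match to AGGTCA, a half-site of nuclear receptors.
Ugt1a1 (chr1:88211709-88211958, + strand): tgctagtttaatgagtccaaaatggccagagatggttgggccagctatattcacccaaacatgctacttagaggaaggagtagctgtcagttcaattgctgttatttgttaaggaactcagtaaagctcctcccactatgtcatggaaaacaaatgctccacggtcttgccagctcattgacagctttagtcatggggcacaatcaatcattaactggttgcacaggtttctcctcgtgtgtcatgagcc
Ugt1a9 (chr1:88070529-88070778, + strand): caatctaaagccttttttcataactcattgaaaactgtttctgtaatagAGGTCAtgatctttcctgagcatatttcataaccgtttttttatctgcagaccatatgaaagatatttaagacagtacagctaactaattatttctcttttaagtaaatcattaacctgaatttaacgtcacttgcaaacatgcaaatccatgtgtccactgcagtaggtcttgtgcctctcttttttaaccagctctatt
Ugt1a10 (chr1:88055161-88055410, + strand): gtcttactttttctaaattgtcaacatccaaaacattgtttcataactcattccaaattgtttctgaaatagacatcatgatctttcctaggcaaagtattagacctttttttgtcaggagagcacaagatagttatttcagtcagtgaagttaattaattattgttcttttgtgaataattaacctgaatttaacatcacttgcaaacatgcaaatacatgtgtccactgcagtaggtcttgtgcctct

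The motifs searched, on both strands, were AGGTCA, a half-site of nuclear receptors, GCGTG, the core of the dioxin receptor site, and TGACNNNGC, the core of the NRF2 site. On the opposite strand AGGTCA starts with the letters TGAC, so matches to it and to the NRF2 core could overlap. AGGTCA was found in 2 of 7 Ugt1a promoters, at 201 bases before the start in Ugt1a9 and 242 in Ugt1a7c. The promoters of Ugt1a9 and Ugt1a10 were 68.9% identical, and those of Ugt1a1 and Ugt1a9 47.1%.

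Among the Ugt2b genes, 5 of 7 promoters held AGGTCA, against 13.8% of all 27025 promoters. It lay 22 bases before the start in Ugt2b5, 25 in Ugt2b36 and Ugt2b38, 39 in Ugt2b37 and 215 in Ugt2b35. Some of these promoters are near copies (Ugt2b37 and Ugt2b38 84.8% identical), so the matches are not independent of each other. In the sequences shown AGGTCA stands in a longer stretch that they have in common. A promoter of a low gene, Ugt2b38, is shown with those of a pair of abundant members because its sequence is so close to that of Ugt2b5 (81.5% identical).
Ugt2b5 (chr5:87140341-87140590, - strand): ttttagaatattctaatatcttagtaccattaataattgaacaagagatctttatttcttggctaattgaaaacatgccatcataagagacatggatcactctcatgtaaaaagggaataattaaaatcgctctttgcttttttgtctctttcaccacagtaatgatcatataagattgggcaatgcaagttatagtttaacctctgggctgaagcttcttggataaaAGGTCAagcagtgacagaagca
Ugt2b36 (chr5:87092556-87092805, - strand): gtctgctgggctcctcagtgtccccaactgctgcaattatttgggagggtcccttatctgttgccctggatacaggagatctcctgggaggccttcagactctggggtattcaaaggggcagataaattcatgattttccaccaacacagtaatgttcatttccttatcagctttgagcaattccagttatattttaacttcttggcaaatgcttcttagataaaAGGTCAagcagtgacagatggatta
Ugt2b38 (chr5:87424204-87424453, - strand): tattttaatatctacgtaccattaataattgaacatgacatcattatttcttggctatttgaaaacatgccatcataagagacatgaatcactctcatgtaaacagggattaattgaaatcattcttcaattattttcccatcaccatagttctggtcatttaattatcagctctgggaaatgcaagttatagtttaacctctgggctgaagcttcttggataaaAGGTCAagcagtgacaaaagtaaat

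GCGTG was present in 28.2% and TGACNNNGC in 10.2% of all promoters, and neither in those of the 10 members. A match gives letters in this window and not binding of a factor.

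The livers held between 65384969 and 89350181 reads on listed genes. A value is the number of reads of a gene over the size factor of that liver, called normalised reads here, and carries no correction for length. The 19 UGT genes together took 0.325%, 0.344% and 0.335% of the reads in control livers against 0.433%, 0.340% and 0.368% in Blnc1 LKO livers. For levels between genes, the values were divided by the length of the exons, and for Ugt1a genes by that of the exon bases no other UGT gene shares. On this scale Ugt2b36 was highest, at 24435 ± 907 (SD, n = 3) normalised reads per kb in control livers, above Ugt2b5 at 21600 ± 1126. Of the sequence stretches counted above, 41.7% of those of Ugt2b5 and 0.33% of those of Ugt2b36 were also in other UGT genes. No correction was made for this, so the order of Ugt2b36 and Ugt2b5 is uncertain. Next came Ugt1a9 at 16476 ± 8457, Ugt2b34 at 10749 ± 501 and Ugt1a1 at 9492 ± 3331, which did not differ beyond their spread. The spread of Ugt1a9 also reached Ugt2b5, and that of Ugt1a1 reached Ugt2b1, Ugt3a2 and Ugt2a3. Ugt2b1 at 8560 ± 754 and Ugt3a2 at 8631 ± 260 did not differ beyond their spread either. They were followed by Ugt2a3 at 6365 ± 358, Ugt2b35 at 5216 ± 495, Ugt1a6b at 1812 ± 629, Ugt1a5 at 1368 ± 769, Ugt3a1 at 1349 ± 83.7 and Ugt1a6a at 888 ± 147, and the other UGT genes were below these. Ugt1a6b, Ugt1a5 and Ugt3a1 did not differ beyond their spread. The place of the Ugt1a genes depends on which exons were counted. Ugt1a6a was divided by 2142 bases, without the part of its first exon that is shared, and Ugt1a6b by 938. Before this division their control means were 1902.5 and 1700 normalised reads, so the order of this pair per kb is uncertain. Over all its exon bases and all 6 livers Ugt1a1 had 5028 normalised reads per kb, and 12248 over its own first exon.

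The comparison of Blnc1 LKO with control livers asks whether these enzymes differ in steatohepatitis when hepatocytes lose most of their Blnc1. No member of the 10 passed an adjusted p under 0.05 (limma on log2(value + 1), Benjamini-Hochberg over all 17297 genes tested), where 1 gene did in all (0.00578%). In 9 of the 10 members the mean was higher in Blnc1 LKO livers and in 1, Ugt1a9, it was lower, while 49.6% of all genes and 5 of the 9 other UGT genes had a log2 fold change above 0. At an unadjusted p under 0.05, 4 of 10 members (Ugt1a1, Ugt1a6a, Ugt2b1 and Ugt2b35) were higher, against 2.94% of all genes, and 0 were lower, against 2.74%. Of the 9 other UGT genes only Ugt1a6b was below this threshold, and it was higher. The members are not independent of each other, since the Ugt1a genes share exons and Blnc1 LKO liver 1 was highest in 9 of 10. They were also chosen with earlier results known. Such counts therefore do not test whether the family differs from all genes. The median log2 fold change of the members was 0.24, against -0.00099 over all genes. The 3 Blnc1 LKO livers lay all above the 3 control livers in 0 of 10 members, against 5.35% of all genes, and all below in 0 of 10, against 5.28%. With edgeR (quasi-likelihood test) 0 members and 0.0116% of all genes had an adjusted p under 0.05, and with DESeq2 0 members and 0.538%. At an unadjusted p under 0.05, edgeR had 4 members higher, against 2.98% of all genes, and 1 lower (Ugt1a9), against 2.62%. DESeq2 had 5 higher, against 2.47%, and 0 lower, against 2.42%. In bulk liver, fewer cells of a type and less RNA per cell cannot be told apart. The labels number the livers within each group and do not state separate cages or batches, so the p-values measure the spread between these livers.

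**Figure D1:**
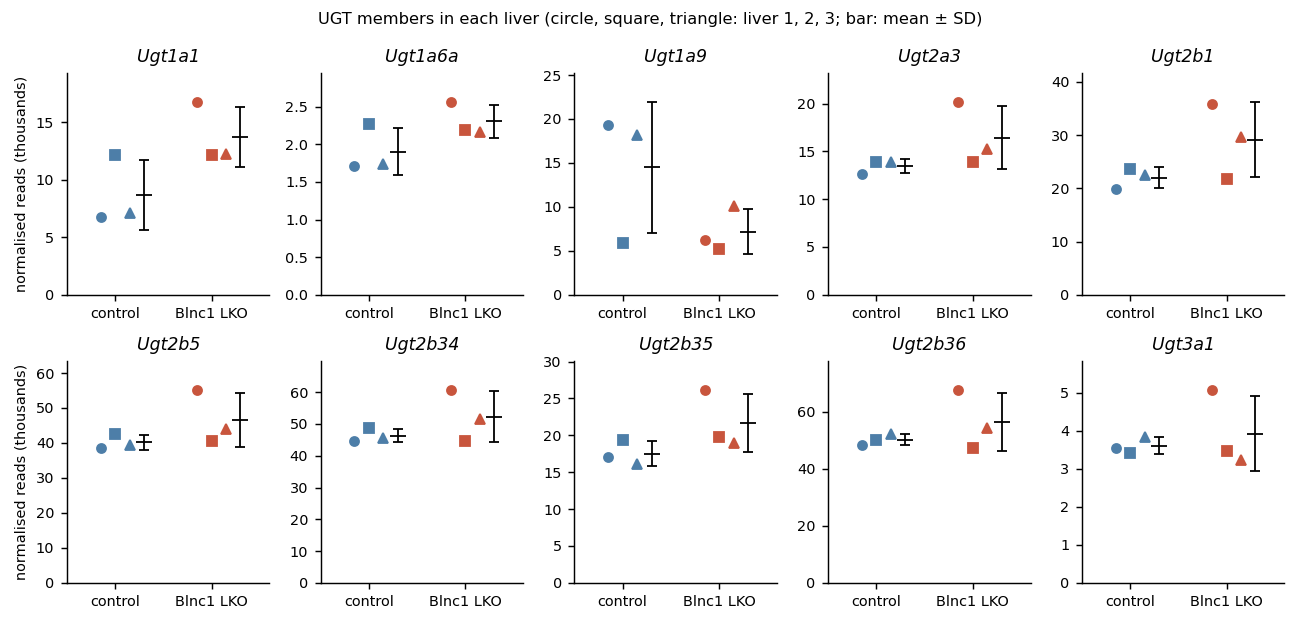
Normalised reads (vertical axis from 0) of the 10 UGT members in each control (blue) and Blnc1 LKO (red) liver, with the mean and SD of 3 livers beside them. Blnc1 LKO liver 1 (red circle) was the highest liver in 9 of the 10 panels, and the groups overlapped in all of them.

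Ugt1a1 encodes the enzyme that conjugates bilirubin, and its loss causes unconjugated jaundice. Its values were 6752, 12173 and 7073 normalised reads in control livers against 16729, 12151 and 12219 in Blnc1 LKO livers. Control liver 2 was at the level of Blnc1 LKO livers 2 and 3, so the groups overlapped, while the other control livers were far below. The mean was 8666 ± 3042 (SD, n = 3) in control and 13700 ± 2623 in Blnc1 LKO livers, 1.58-fold higher. The log2 fold change was 0.70 (SE 0.22, adjusted p = 0.781, limma), and larger values were found for 573 of the genes tested. It was between 0.55 and 0.97 when each liver was left out in turn, highest without control liver 2.

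Ugt1a9 encodes an enzyme for phenolic drugs and other compounds, and was the member with the widest spread. Control livers had 19356, 5927 and 18166 normalised reads, and Blnc1 LKO livers 6205, 5217 and 10099. Control livers 1 and 3 were above all others, and control liver 2 was second lowest. The log2 fold change was -0.89 (SE 0.43, adjusted p = 0.891, limma). It went from -0.59 without control liver 1 to -1.44 without control liver 2.

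Ugt1a6a encodes an enzyme for flat phenols. It had 1705, 2265 and 1737 normalised reads in control livers against 2559, 2184 and 2166 in Blnc1 LKO livers. The order of the livers resembled that of Ugt1a1, with control livers 1 and 3 lowest and Blnc1 LKO liver 1 highest. The log2 fold change was 0.28 (SE 0.12, adjusted p = 0.859, limma).

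The summed Ugt1a genes varied less between livers than Ugt1a1 and Ugt1a9 did. In control livers the SD of the log2 sum was 0.152, against 0.0648 for the summed Ugt2b genes. The 8 Ugt1a genes summed to 30313, 24895 and 29341 normalised reads in control livers against 30062, 23607 and 28439 in Blnc1 LKO livers, giving a log2 fold change of -0.04. Ugt1a9 made up 63.9%, 23.8% and 61.9% of this sum in control livers against 20.6%, 22.1% and 35.5% in Blnc1 LKO livers. Ugt1a1 made up 22.3%, 48.9% and 24.1%, and then 55.6%, 51.5% and 43.0%. In control livers 1 and 3 most reads of the locus were thus on Ugt1a9, and in the other 4 livers more were on Ugt1a1. The ratio of Ugt1a1 to Ugt1a9 was 0.349, 2.05 and 0.389 in control and 2.70, 2.33 and 1.21 in Blnc1 LKO livers. Neither share nor the ratio separated the groups beyond their spread (exact permutation test, two-sided, p = 0.2 for each, adjusted p = 0.333 over 5 tests). With 3 against 3 livers this test cannot go below 0.1. The same exact permutation test gave p = 0.6 for the summed Ugt1a genes and p = 0.3 for the summed Ugt2b genes.

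**Figure D2:**
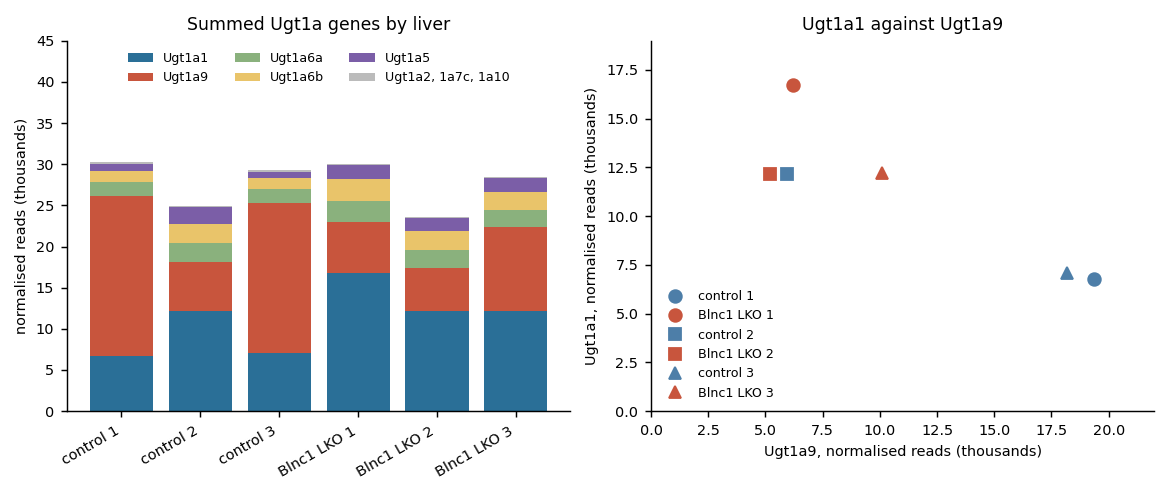
Left, normalised reads (from 0) of the Ugt1a genes stacked for each liver, and right, Ugt1a1 against Ugt1a9 in the same unit, with a symbol per liver. The stacks have similar heights (23607 to 30313 normalised reads), and control livers 1 and 3 differ from the others by a large Ugt1a9 and a small Ugt1a1 portion.

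Of the 5 other genes of the locus, 1 was highest in control livers 1 and 3, as Ugt1a9 was, and 2 were lowest there, as Ugt1a1 was. Ugt1a10, whose first exon is 86.9% identical to that of Ugt1a9, had 160, 53.3 and 135 normalised reads in control and 48.8, 63.0 and 86.9 in Blnc1 LKO livers. Its ratio to Ugt1a9 stayed between 0.00745 and 0.0121, and control livers 1 and 3 were highest in both. Of the 50-base stretches of its first exon 5.82% are also in Ugt1a9, and the part of reads shared by the pair was not tested. Ugt1a6b (1335, 2381 and 1384, then 2689.6, 2374 and 2087) and Ugt1a5 (922, 2005 and 734, then 1746, 1533 and 1694) had control liver 2 near or above the Blnc1 LKO livers, as in Ugt1a1. Ugt1a7c and Ugt1a2 were low, with means of 84.9 and 5.70, and followed neither pattern.

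The 5 Ugt2b members were all highest in Blnc1 LKO liver 1, and their proportions were similar in all livers. Ugt2b36, the member with the most normalised reads, had 48554, 50111 and 52271 in control livers against 67668.5, 47504 and 54216 in Blnc1 LKO livers. Ugt2b34 had 44648, 48783 and 45619.9, and then 60679, 44761 and 51470.0. Ugt2b5 had 38549.7, 42503 and 39343, and then 55120.4, 40610.4 and 43968. In all of these Blnc1 LKO liver 1 was highest, Blnc1 LKO liver 2 was among the control livers or below them, and the control livers lay close together. The log2 fold changes were 0.15 (SE 0.12) for Ugt2b36, 0.16 (SE 0.11) for Ugt2b34 and 0.20 (SE 0.11) for Ugt2b5. None passed the test (adjusted p from 0.927 to 0.971, limma).

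Ugt2b1 had the largest log2 fold change of the Ugt2b members, 0.38 (SE 0.16, adjusted p = 0.870, limma). Its values were 19872, 23639.7 and 22562 normalised reads in control livers against 35881, 21765 and 29676 in Blnc1 LKO livers. Blnc1 LKO livers 1 and 3 were above all control livers, and Blnc1 LKO liver 2 was within them. Ugt2b35 had 17036, 19371 and 16152 in control livers against 26141, 19797 and 18999.5 in Blnc1 LKO livers, with a log2 fold change of 0.29 (SE 0.12, adjusted p = 0.864, limma). Here Blnc1 LKO livers 1 and 2 were above the control livers, and liver 3 was just below control liver 2.

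The shares of the 5 Ugt2b members in the summed Ugt2b genes varied little between livers. They lay between 22.1% and 23.3% for Ugt2b5, 24.7% and 26.4% for Ugt2b34, 27.1% and 29.7% for Ugt2b36, 9.17% and 11.3% for Ugt2b35, and 11.8% and 14.9% for Ugt2b1. In the Ugt1a locus, by contrast, the share of Ugt1a9 ranged from 20.6% to 63.9%. The sum of the 7 Ugt2b genes was 168807, 184667 and 176217 in control livers against 245803, 174643 and 198652 in Blnc1 LKO livers, giving a log2 fold change of 0.21. Ugt2b37 and Ugt2b38, whose transcripts are 91.6% and 93.9% identical to that of Ugt2b5, had means of 142 and 111, and shares of 0.0481% to 0.102% and 0.0392% to 0.0782% of this sum. For Ugt2b38 the log2 fold change was 0.56 and for Ugt2b37 0.17, and neither passed the test (adjusted p = 0.891 and 0.984, limma).

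Ugt2a3, whose human counterpart acts on bile acids, had 12599.7, 13934 and 13893 normalised reads in control livers against 20148, 13926 and 15234 in Blnc1 LKO livers. The 3 control values were close together, and Blnc1 LKO livers 1 and 3 were above them. The log2 fold change was 0.27 (SE 0.12, adjusted p = 0.891, limma).

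Ugt3a1, whose human counterpart takes N-acetylglucosamine from its sugar donor, had 3559, 3405 and 3845 in control livers against 5069.7, 3474 and 3237 in Blnc1 LKO livers. Blnc1 LKO liver 1 was highest and liver 3 was lowest of all 6, and the log2 fold change was 0.10 (SE 0.15, adjusted p = 0.980, limma). Without Blnc1 LKO liver 1 it was -0.10. Its neighbour Ugt3a2, the more abundant of the pair, had a log2 fold change of 0.18 (adjusted p = 0.930, limma). Ugt8a, which makes galactosylceramide for myelin, was low in the liver, with a mean of 120.4 and a log2 fold change of -0.05.

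**Figure D3:**
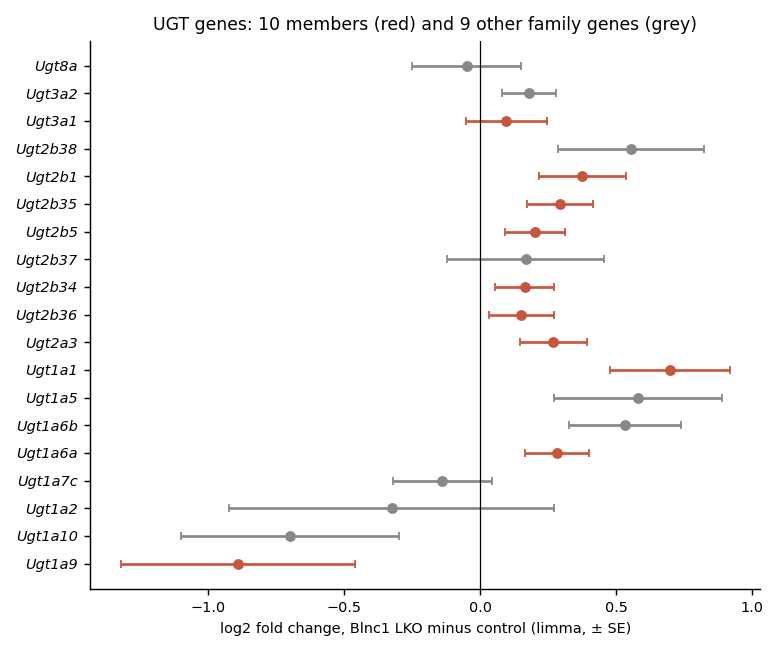
Log2 fold change (Blnc1 LKO minus control, limma on log2(value + 1), horizontal axis) with its SE for the 10 members (red) and 9 other UGT genes (grey). The members lie between -0.89 for Ugt1a9 and 0.70 for Ugt1a1, and 9 of the 10 are above 0.

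Much of the higher mean came from 1 liver. Blnc1 LKO liver 1 was highest in 9 of 10 members and in all 7 members of the Ugt2 and Ugt3 families, and control liver 1 was lowest in 6 of 10. How often this held over all genes was not counted. Of the hepatocyte markers given below, Alb, Ttr, Apoc3 and Serpina1a were also highest in Blnc1 LKO liver 1, and Tat, Cps1, Apoa1 and Hnf4a were not. Without Blnc1 LKO liver 1 the median log2 fold change of the members was 0.09, with 8 of 10 above 0 and 1 of 10 higher at an unadjusted p under 0.05, against 2.69% of all genes. Without Blnc1 LKO liver 2, which was near the control livers, the median was 0.31 and 7 of 10 were higher at an unadjusted p under 0.05, where 5.22% of all genes were higher. This count was 1 of 10 without control liver 1 (2.09% of all genes) or without control liver 3 (1.99%), and 3 of 10 without control liver 2 (2.53%) or without Blnc1 LKO liver 3 (2.62%). In both of the last fits Ugt1a9 was lower at an unadjusted p under 0.05, as were 2.05% and 2.9% of all genes. In none of these fits did a member pass an adjusted p under 0.05, and the lowest was 0.144 (limma, without control liver 2).

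**Figure D4:**
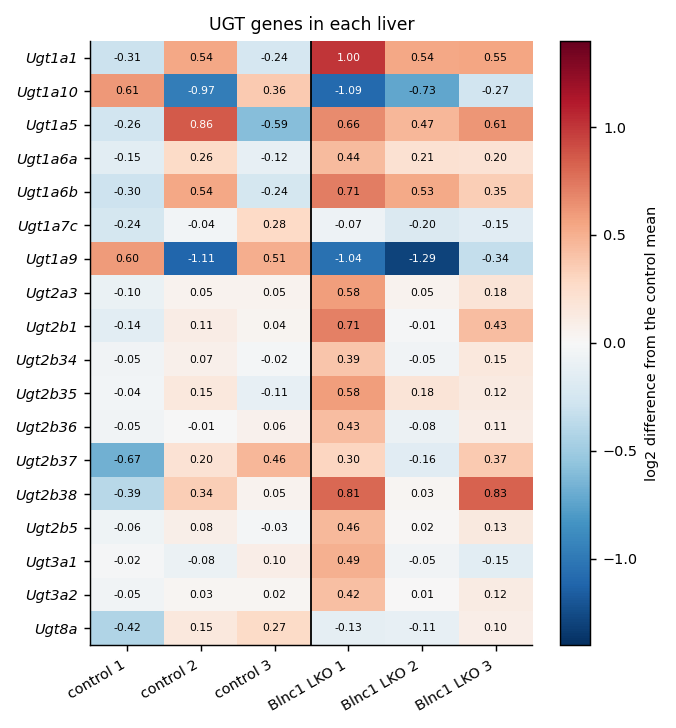
Difference of log2(value + 1) from the mean of the control livers (colour and printed value) for 18 UGT genes in each liver, with Ugt1a2 left out because its mean was 5.70 normalised reads. The Ugt2 and Ugt3a rows are highest in Blnc1 LKO liver 1, except Ugt2b37 and Ugt2b38, and Ugt1a9 and Ugt1a10 are below the control mean in control liver 2 and the Blnc1 LKO livers.

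Outside the family, the genes whose pattern over the 6 livers was most like the mean standardised pattern of the members were Rbbp9 (Pearson r = 0.998), Cgrrf1 (0.995), Mapk8 (0.995), Dap3 (0.994) and Fam126b (0.994), among 12845 genes with a mean of at least 1 CPM. The 6 livers are the points, and Blnc1 LKO liver 1 was the farthest from the median of this pattern. Without the 2 livers farthest from that median, Blnc1 LKO 1 and 3, r over the other 4 was 0.944, 0.946, 1.00, 0.934 and 0.868. With so many genes and 6 livers, high values are found among many of them, and no test was made.

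The enzymes and carriers around glucuronidation were described by lists, and 0 genes of any list passed an adjusted p under 0.05 (limma). With DESeq2 some of the marker genes given further below passed it, as did 0.538% of all genes. Over all genes, 2.94% were higher and 2.74% lower at an unadjusted p under 0.05. Of the 6 genes that supply UDP-glucuronate, 3 were higher and 3 lower, with 0 at an unadjusted p under 0.05. Ugdh, the enzyme that makes UDP-glucuronate from UDP-glucose, had 20219.8, 20205 and 18476 normalised reads in control and 19502, 17970.0 and 17192 in Blnc1 LKO livers, giving a log2 fold change of -0.11 (SE 0.07). Ugp2, which makes UDP-glucose, had -0.11 (SE 0.09), the nucleotide sugar carrier Slc35b1 had 0.19 (SE 0.09), and Slc35d1, a carrier of UDP-glucuronate into the endoplasmic reticulum, 0.13 (SE 0.06). Slc35d1 was the gene of this list whose groups did not overlap, with 6489.9 to 6930.3 normalised reads in control and 6937 to 7860.4 in Blnc1 LKO livers. All Blnc1 LKO livers were above all control livers in 5.35% of all genes. Both genes that remove glucuronic acid again, Gusb (beta-glucuronidase, log2 fold change -0.11, SE 0.08) and Abhd10 (-0.02, SE 0.07), were slightly lower and did not pass the test.

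Of the 8 genes for export and uptake of conjugates, 5 were higher and 3 lower. At an unadjusted p under 0.05, 2 were higher, against 2.94% of all genes. Slco1a1, an uptake carrier of organic anions, had 3037, 7289 and 3308 normalised reads in control and 16598, 6943 and 14479 in Blnc1 LKO livers. Control liver 2 was again above the other control livers, and at the level of Blnc1 LKO liver 2. The log2 fold change was 1.50 (SE 0.39, adjusted p = 0.607, limma). The exporter Abcg2 had 0.21 (SE 0.08) and the carrier Slco1b2, which takes conjugated bilirubin back into hepatocytes, 0.17 (SE 0.12). Abcc2 (log2 fold change -0.06) and Abcc3 (0.05), which export bilirubin glucuronide into bile and blood, did not pass the test.

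The 4 genes that turn heme into bilirubin, the substrate of Ugt1a1, all had higher means. Against 2.94% of all genes, 1 of them was higher at an unadjusted p under 0.05. This was Hmox1, the inducible heme oxygenase, with 4198, 4162 and 3438 normalised reads in control and 4924.5, 4612 and 8018 in Blnc1 LKO livers, giving a log2 fold change of 0.53 (SE 0.19, adjusted p = 0.831, limma). Its groups did not overlap, with the Blnc1 LKO livers above as in 5.35% of all genes, and Blnc1 LKO liver 3, not liver 1, was highest. Blvrb (0.14) and Hmox2 (0.06) were next. The 3 genes on the way from UDP-glucuronate to ascorbate were also higher in the mean, led by Rgn (log2 fold change 0.31, SE 0.13, adjusted p = 0.873, limma), Gulo (0.10) and Akr1a1 (0.07). The groups of Akr1a1 did not overlap, with 41641.6 to 44638 normalised reads in control and 44691.9 to 46198.8 in Blnc1 LKO livers.

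Of the 13 transcription factors of the list of known regulators of Ugt genes reported here, 12 had a value, 7 were higher and 5 lower, and 0 had an unadjusted p under 0.05. Nfe2l2, which encodes NRF2, had the smallest p, with 11679.5, 12029 and 12137 normalised reads in control and 11269, 10763 and 11182 in Blnc1 LKO livers, giving a log2 fold change of -0.11 (SE 0.05, adjusted p = 0.880, limma). Its groups did not overlap, with the Blnc1 LKO livers below as in 5.28% of all genes. Foxa1 had 0.25 (SE 0.12) and Rxra 0.10 (SE 0.08).

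**Figure D5:**
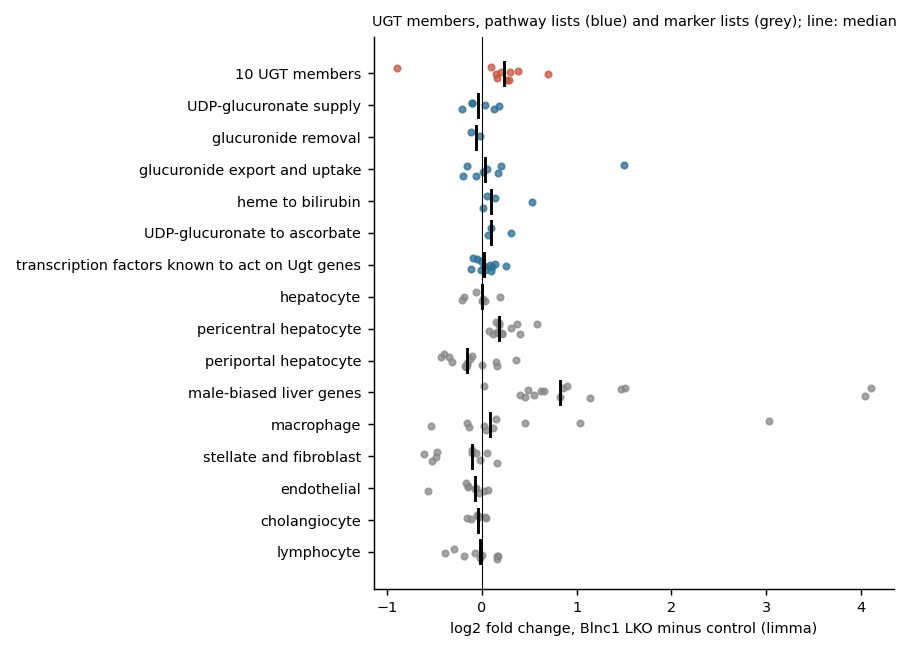
Log2 fold change (Blnc1 LKO minus control, limma, horizontal axis) of each gene in the UGT members (red), pathway lists (blue) and marker lists (grey), with a line at the median of each list. The median of the members was 0.24, that of the male-biased liver genes 0.84 and that of the pericentral genes 0.18.

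Marker genes of liver zones and cell types were read in the same livers, and their part in the values above was not tested. Over all genes, 49.6% had a log2 fold change above 0, and 2.94% were higher and 2.74% lower at an unadjusted p under 0.05. All 16 male-biased liver genes had higher means in Blnc1 LKO livers and 13 had an unadjusted p under 0.05. Their mean log2 difference from the control mean was -0.33, 0.66 and -0.33 in control and 1.72, 0.64 and 1.29 in Blnc1 LKO livers, so control liver 2 was at the level of Blnc1 LKO liver 2, as in Ugt1a1 and Slco1a1. Slco1a1 is in this list too. With DESeq2, Susd4 (adjusted p = 0.00023) and Nudt7 (adjusted p = 0.0050) of this list passed 0.05, as did 0.538% of all genes. All 14 pericentral genes, which mark the hepatocytes around the central vein, had higher means, and 5 had an unadjusted p under 0.05. Their mean log2 difference was 0.04, -0.02 and -0.02 in control and 0.38, 0.05 and 0.26 in Blnc1 LKO livers, highest like the Ugt2 genes in liver 1. Gulo is in this list as well as in the ascorbate list. The pericentral gene Cyp2e1 had an adjusted p of 0.0324 with DESeq2. Of the 14 periportal genes 4 were higher and 10 lower, with 1 lower at an unadjusted p under 0.05. Among the lower ones Ass1 was near the floor, with 4 to 13 reads per liver. It still counts in the mean that follows, with -0.81 in Blnc1 LKO liver 1. The mean log2 difference of the periportal genes was 0.08, -0.20 and 0.12 in control and 0.04, -0.32 and -0.09 in Blnc1 LKO livers.

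The labelled tissue was checked with hepatocyte markers, which were high in every liver and summed to between 5068430 and 5693750 normalised reads in control and 4944120 and 5991590 in Blnc1 LKO livers, with 5 of 8 higher, 3 lower and 0 at an unadjusted p under 0.05. For the counts that follow, 2.94% of all genes were higher and 2.74% lower at an unadjusted p under 0.05. Of the 10 stellate and fibroblast genes 8 were lower, 4 of them at an unadjusted p under 0.05. Their sum was 116353 to 128866 in control and 98178 to 116993 in Blnc1 LKO livers. With DESeq2, adjusted p was 0.0046 for Col1a1, 0.016 for Acta2 and Col1a2, and 0.025 for Col3a1, all lower in Blnc1 LKO livers. Of the 9 endothelial genes 7 were lower, 4 at an unadjusted p under 0.05, with sums of 30339 to 32355 and 29449 to 30385. Of the 10 macrophage genes 7 were higher, with 4 higher and 1 lower at an unadjusted p under 0.05 and sums of 89322 to 95264 and 93482 to 99949. The 7 cholangiocyte genes (2 higher, sums of 61459 to 73569 and 49048 to 73652) and the 9 lymphocyte genes (3 higher, sums of 5547 to 6012 and 5381 to 6475) had 0 at an unadjusted p under 0.05. No marker was at 0 in any liver.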

How the data were processed

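Liver RNA of 6 mice was sequenced from unstranded polyA libraries (TruSeq v2). Per the labels and the study's methods, the authors used STAR with mm10 for alignment, HTSeq for counting and DESeq2 for testing. Versions, annotation and the treatment of reads shared between genes are not given in the sources used here. The deposited table holds 1 signal per gene and liver, the read count divided by a size factor, and 100% of values were whole multiples of 1 read within a tolerance of 0.05. Reads per liver ranged from 65384969 to 89350181. Columns named for wild-type and knockout livers were matched by number to control and Blnc1 LKO livers.

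limma (version 3.58.1, R 4.3.3) with a trend was fitted to log2(value + 1) over 17297 genes, those reaching 1 in 3 or more livers, without covariates. Fold changes on this scale understate the change of low genes. The Benjamini-Hochberg method was applied over all genes, at a threshold of 0.05. edgeR (version 4.0.16) and DESeq2 (version 1.42.0) were run on the recovered reads as alternatives, and limma was checked on simulated data. Single values were compared by exact permutation tests. Genes named were the members, all other UGT genes, Ugp2, Ugdh, Slc35d1 and Gusb, the 3 of smallest unadjusted p in each pathway list and the 5 most alike. Abcc2, Abcc3 and the marker genes named were chosen after their values were seen. Members and lists were chosen with earlier results of these data known. No pair of replicate livers agreed within sampling noise (chi-square over its degrees of freedom at least 20.8). Ugt1a8, Ugt2a1 and Ugt2a2 were not analysed here, and 1 listed regulator is not reported here. Positions came from GENCODE M21 (all 19 UGT genes matched) and promoters from RefSeq (17 of 19 matched, without Ugt1a6b and Ugt3a2). Identity is over a global alignment, of first exons for Ugt1a genes.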

Additional observations from a re-analysis of the deposited data

How the results depend on the processing

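No member passed an adjusted p under 0.05 under any of the 14 alternatives, which were the replicate block, a pseudocount of 0.1, tests without the filter on low values or over genes reaching 10 reads per liver, edgeR with TMM, edgeR with library size only, DESeq2, limma voom and each of 6 livers left out. The lowest adjusted p was 0.144. Of 140 member values, 139 kept their direction, and Ugt3a1 turned from 0.10 to -0.10 without Blnc1 LKO replicate 1, within a range of -0.10 to 0.22 over the livers left out. Over the 8 alternatives that kept all livers, Ugt1a9 ranged from -1.02 to -0.89 and Ugt1a1 from 0.65 to 0.70 on the log2 scale. The summed Ugt1a genes ranged from -0.13 to 0.06 and the summed Ugt2b genes from 0.08 to 0.32 with a liver left out. Library size as the only scaling moved the median of all genes to -0.0029 and left 9 members above 0.

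Over all genes, the count past the threshold was 1, against 2 with no filter, 2 with edgeR and TMM, 84 with DESeq2 and 0 to 13 with a liver left out (13 without Blnc1 LKO liver 2, 0 without control liver 1, 2 without control liver 2 and 2 without Blnc1 LKO liver 1). The causes were not tested. With the replicate block it was 0 genes and 0 members. Deviations of livers with the same number correlated at -0.058, -0.019 and -0.107, so the numbers are not taken to pair the mice.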
